A study of Drosophila melanogaster with 48 samples.

Results

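The genes described here are 10 effectors of the Drosophila Toll pathway, chosen by name: BomS1, BomS2, BomS3, BomBc1, BomBc2, BomBc3, BomT1, Dso1, Drs and Mtk. They are 10 of the 17869 annotated genes in the count tables, and each one passed the filter on low counts in each fit. In Toll signalling, cleaved Spätzle binds the receptor Toll, the inhibitor Cactus is degraded, and the NF-κB factors Dif and Dorsal enter the nucleus and induce secreted peptides. The Bomanins are short secreted peptides that the fat body, the fly's liver-like organ, releases on infection with fungi and Gram-positive bacteria. Dso1 encodes a Daisho antifungal peptide, Drs encodes the antifungal peptide Drosomycin, and Mtk encodes Metchnikowin, a peptide that also responds to the Imd pathway, the second humoral immune pathway of the fly.

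Brains were collected from males (M), wildtype-mated females (F), virgin females (V) and females mated with SP0 males (SP), which lack sex peptide, the seminal protein that triggers post-mating responses. Flies of each kind received very mild head trauma on day 3 after eclosion (D3Inj) or were placed in the injury vial without impacts (sham). Brains were taken on day 4, which is 1 day post-injury, and on day 45, which is 6 weeks post-injury. The 16 groups had 3 libraries each, from independent cohorts of 40 flies per library. The labels give every fly as WT, and the study's methods describe the flies, unless otherwise noted, as offspring of nSyb-GAL4 males and w1118 females, so sham and injured flies carry the same neuronal driver. Each library is therefore a pool of brains, and neither single flies nor single cells were resolved.

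Library totals ranged from 21495740 to 60637359 assigned counts with a median of 35543946. Sample identity was taken from the column header inside each table, because header and record disagreed for 47 of 48 tables. The X-linked male RNAs roX1 and roX2 summed to between 17.3 and 57.6 CPM (counts scaled to the TMM-adjusted library total) in the libraries headed as female and between 5743 and 6555 CPM in those headed as male. The 8 neuronal markers summed to between 9352 and 14450 CPM and the 6 glial markers to between 1555 and 3353 CPM, with no marker of either list at 0 in any library. Genes of the lists for other tissues were counted as well, and which cells their RNA came from was not tested. The 10 fat body genes, of which up to 2 were at 0, summed to between 2175 and 23410 CPM, the 7 hemocyte genes to between 855 and 1999 CPM, and the 14 gut genes, of which 1 to 10 were at 0, had a median of 5.91 CPM but reached 1259 to 1835 CPM in 4 day 4 libraries (sham virgin libraries 2 and 3, sham wildtype-mated library 3 and D3Inj male library 3).

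Of the 10 genes, 6 lie in 1 cluster on chromosome arm 2R in the dm6 assembly, and the remaining 4 lie elsewhere. From left to right the cluster holds BomT1 at chr2R:18381393-18381844 on the minus strand, BomBc1 at chr2R:18382704-18383235 on the minus strand and BomS1 at chr2R:18383949-18384378 on the plus strand. It goes on with BomBc2 at chr2R:18384824-18385589 on the minus strand, BomS2 at chr2R:18386602-18387030 and BomS3 at chr2R:18387895-18388734, both on the plus strand. Mtk lies at chr2R:15408846-15409113 on the plus strand, Dso1 at chr2R:20868496-20869321 on the minus strand, BomBc3 at chr3R:22087075-22088501 on the plus strand and Drs at chr3L:3369556-3369942 on the plus strand. BomBc2 overlaps BomS4 on the opposite strand and Mtk lies inside Stacl on the same strand. The libraries were stranded, but the strand setting of the counting is not given in the sources used here, so the counts of BomBc2 and Mtk may share reads with these neighbours.

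Per kilobase of exon, the short Bomanin BomS2 and the Daisho gene Dso1 were the most abundant of the 10. Their median levels over the 48 libraries were 33.9 and 25 RPKM (CPM per kilobase of exon), followed by BomBc2 at 15.7 RPKM, BomS3 at 10.3 RPKM and Drs at 7.27 RPKM. BomS1 had a median of 5.04 RPKM and Mtk one of 4.71 RPKM. The bicipital Bomanins BomBc3 and BomBc1 and the tailed Bomanin BomT1 were lowest, at 1.33, 0.835 and 0.662 RPKM. BomS1 and Mtk, and BomBc1 and BomT1, which follow each other in this ranking, were closer to each other than the spread of either gene over the libraries. That spread was 60.7-fold for BomS1, 56.3-fold for Mtk and 175-fold for BomBc1. BomT1 had at most 34 counts in a library and none in sham male library 1 of day 4 and sham SP library 2 of day 45, where a count of 0 allows up to 0.112 and 0.131 CPM. These floors cover counting error only.

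Levels of these genes varied more between libraries of the same group than those of most genes. The biological coefficient of variation, the relative spread between replicates estimated by edgeR, was between 0.377 for BomBc3 and 0.749 for BomBc1, whereas its median over all features was 0.133. BomBc3 was more variable than 82.2% of features and BomBc1 more than 97.2%. The 16 groups together accounted for 18.1% of the variance of BomS2 on the log2 scale and for 53.3% of that of Drs. Day alone accounted for between 0.0445% for Dso1 and 9.44% for BomBc2.

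**Figure D1:**
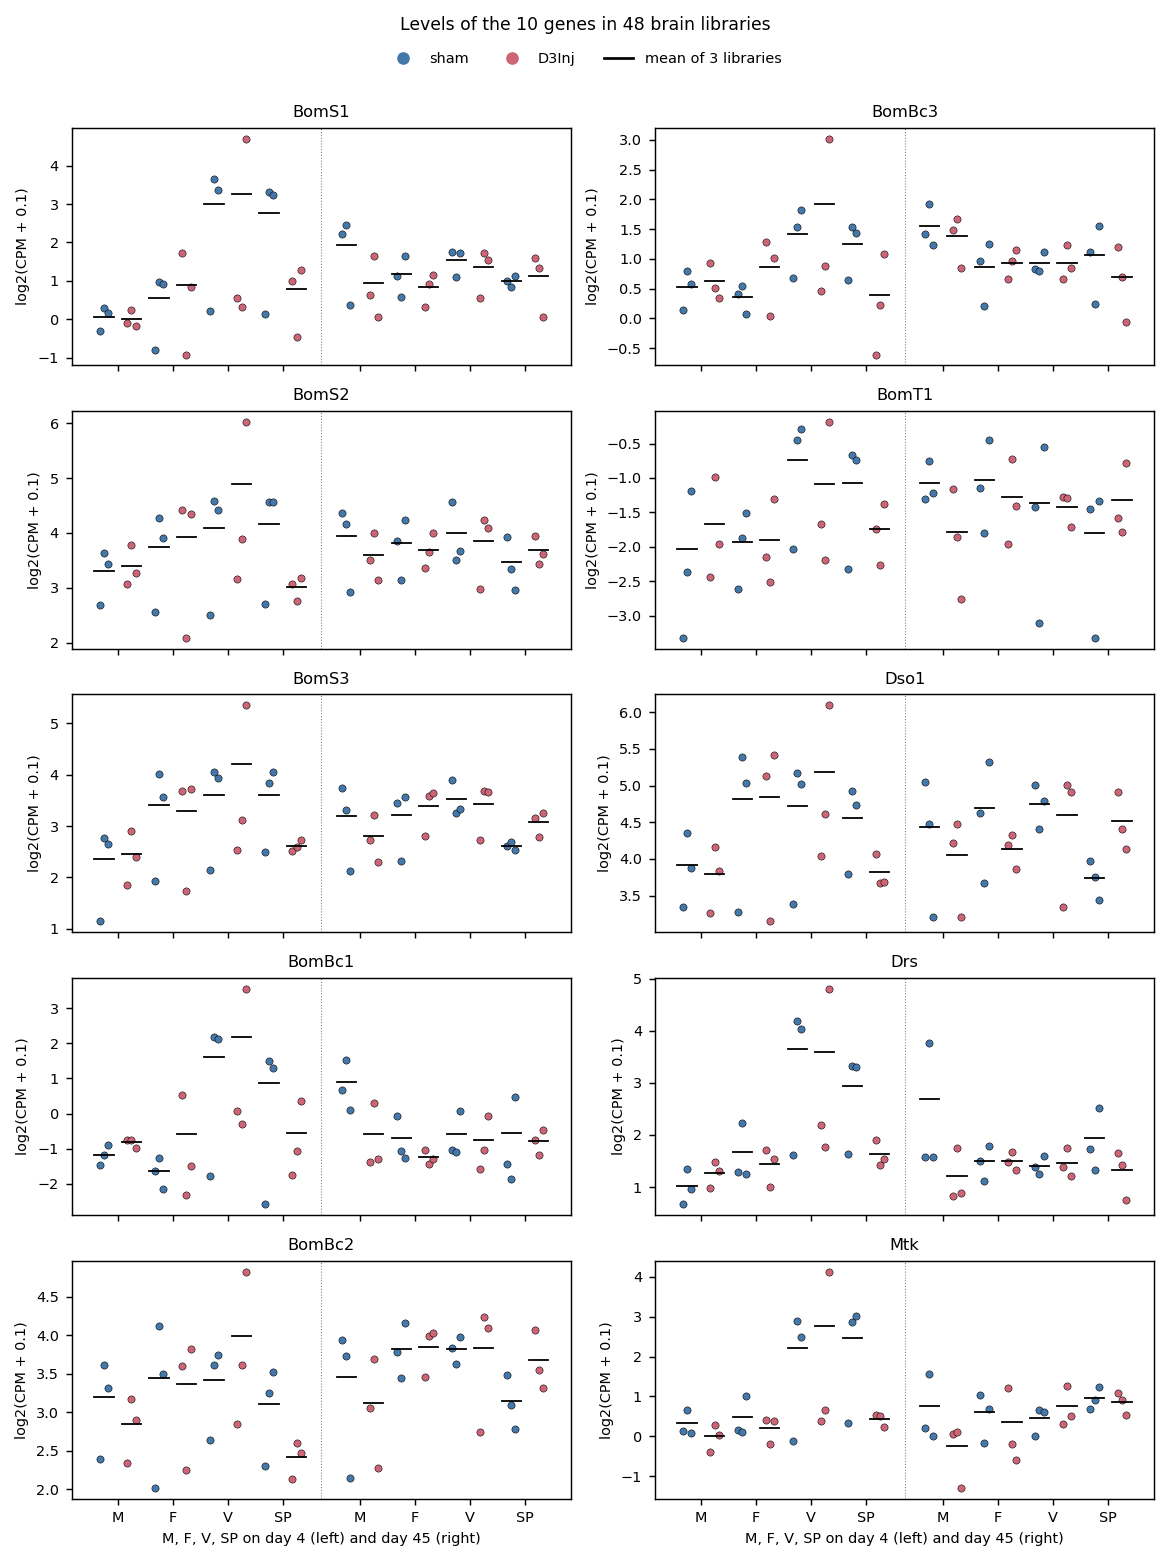
Levels of the 10 genes in each library, as log2(CPM + 0.1) on the vertical axis of each panel, for males (M), wildtype-mated females (F), virgin females (V) and SP0-mated females (SP) on day 4 (left of the dotted line) and day 45 (right). Points are libraries (blue, sham; red, D3Inj; replicates 1 to 3 from left to right) and lines are means of 3. On day 4, D3Inj virgin library 3 and libraries 2 and 3 of sham virgin and sham SP females stand high, with Drs at 27.9 CPM in D3Inj virgin library 3.

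A single library, D3Inj virgin library 3 on day 4, held the highest value of each of the 10 genes. BomS2 was at 64.9 CPM there and at 8.88 and 14.7 CPM in D3Inj virgin libraries 1 and 2. BomS1 was at 26 CPM against 1.36 and 1.14 CPM, and Mtk was at 17.4 CPM against 1.2 and 1.47 CPM. The value in library 3 exceeded that of the next highest library of the series by between 1.09-fold for BomT1 and 2.72-fold for BomS2. Its 10 genes summed to 294 CPM, and the other 47 libraries lay between 25.1 and 134 CPM.

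In 2 further day 4 groups, libraries 2 and 3 were high and library 1 was low. In sham virgin females Drs was at 2.95, 18.2 and 16.4 CPM and BomBc1 at 0.194, 4.46 and 4.28 CPM in libraries 1 to 3. In sham SP females Drs was at 3, 9.85 and 9.8 CPM and BomBc1 at 0.0666, 2.74 and 2.38 CPM. Within both groups the fold between library 1 and either other library was smallest for a bicipital Bomanin (1.78-fold for BomBc3 in SP library 3) and largest for BomBc1 (41.2-fold in SP library 2). A comparison between 3 such libraries and another group therefore rests on whether the high or the low libraries are counted.

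Libraries at the low end stood out too, and on day 4 they were often library 1. In sham flies library 1 had the lowest sum of the 10 genes in every kind, from 28.1 CPM in males to 37.3 CPM in SP females. It was also the lowest in D3Inj males (32 CPM) and D3Inj virgin females (47.5 CPM). Library 2 was the lowest in D3Inj wildtype-mated (25.1 CPM) and D3Inj SP females (37.3 CPM). Between same-numbered sham and D3Inj libraries of the same kind and day, deviations from group means over all features correlated at r between -0.164 and 0.178. Whether equal library numbers mark a shared source across kinds was not tested. On day 4 the summed level of the 10 genes was 28.1 CPM in sham male library 1, 28.5 CPM in sham wildtype-mated library 1 and 25.1 CPM in D3Inj wildtype-mated library 2, whereas the other libraries of the last 2 groups lay between 78.1 and 103 CPM. Dso1 was at 9.63, 41.7 and 32.8 CPM in sham wildtype-mated females and at 34.9, 8.79 and 42.5 CPM in their D3Inj counterparts. The sham and D3Inj values overlapped, and the highest and lowest libraries differed 4.33-fold within the sham group and 4.83-fold within the D3Inj group.

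**Figure D2:**
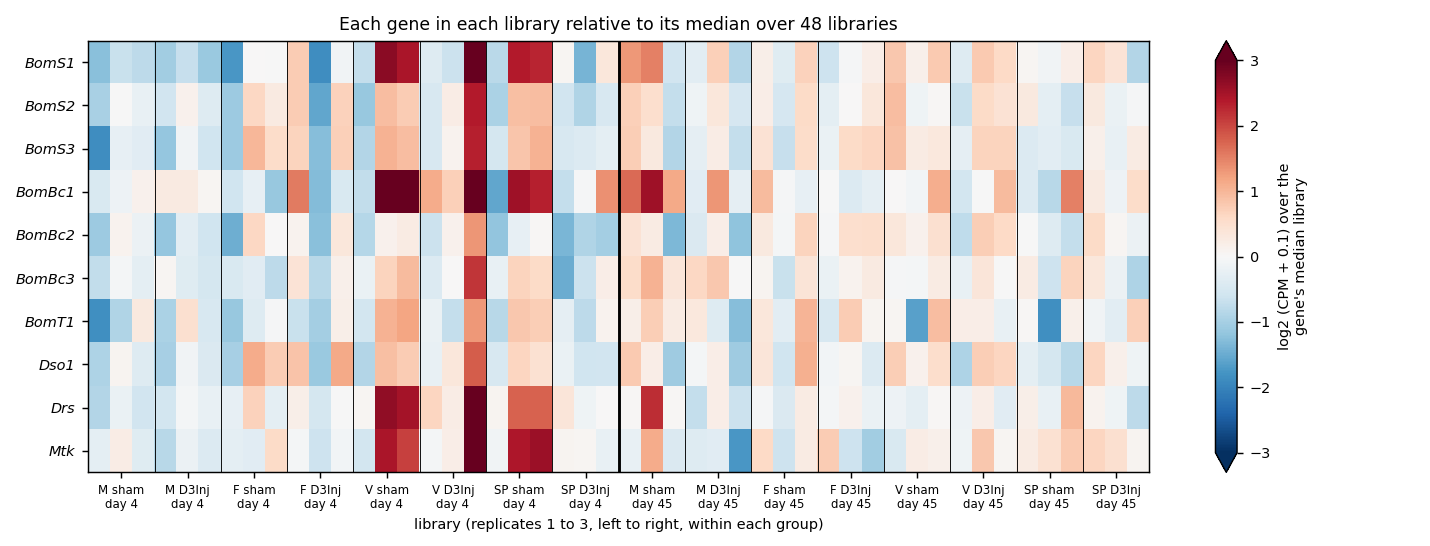
Each of the 10 genes (rows) in each of the 48 libraries (columns, grouped by kind, treatment and day, replicates 1 to 3 from left to right), coloured by log2 of CPM + 0.1 over the gene's median library. Red columns run through nearly all genes in D3Inj virgin library 3 and in sham virgin and sham SP libraries 2 and 3 of day 4, where the 10 genes summed to between 110 and 294 CPM.

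The 10 genes moved together from library to library, and several other effectors moved with them. All 45 pairs had a positive correlation of log2 CPM, with r between 0.364 and 0.926 (median 0.631) over 48 libraries and between 0.484 and 0.956 (median 0.684) after group means were subtracted. The closest pair was BomS2 and BomS3 (r = 0.956 after group means) and the loosest was BomT1 and Mtk (r = 0.484). These points share libraries and depth, and the values are a description. Outside the 10, the 5 genes most like their mean standardised level over 48 libraries were Bbd (bombardier, a gene needed for the activity of short Bomanins; r = 0.896), GNBP-like3 (r = 0.822), Spn88Eb (a serpin; r = 0.792), BomT3 (r = 0.772) and DptB (a diptericin; r = 0.766). After group means were subtracted Lst, which encodes the peptide Limostatin (r = 0.823), took the place of DptB (r = 0.774). Not all effectors followed: after group means, r was 0.0745 for TotM, a Turandot stress protein gene, and 0.142 for edin, listed with the Imd peptides.

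Peptides of the Imd type, such as the diptericins, attacins and cecropins, were high in the same libraries. The 13 Imd peptide genes summed to between 3.07 and 11.1 CPM in 40 libraries and to between 22.5 and 87.2 CPM in 8. Of these 8, 5 were from day 4: D3Inj virgin library 3 (83.1 CPM), sham virgin libraries 2 and 3 (87.2 and 80.2 CPM) and sham SP libraries 2 and 3 (66 and 68.5 CPM). The other 3 were sham male libraries 1 and 2 of day 45 (24.8 and 68.2 CPM) and D3Inj SP library 1 of day 45 (22.5 CPM). Among the 10 genes Mtk and Drs followed the Imd sum most closely (r = 0.862 and 0.859 after group means), then BomS1 (r = 0.832) and BomBc1 (r = 0.784), whereas BomT1 and BomBc2 followed it least (r = 0.468 and 0.586).

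The summed fat body level also moved with several of the genes. After group means were subtracted, BomBc2 and Dso1 had r = 0.735 and 0.708 with the fat body sum, against 0.586 and 0.613 with the Imd sum. BomS2 had r = 0.65 with the fat body sum and 0.712 with the Imd sum. BomBc1 and Mtk had r = 0.136 and 0.236 with the fat body sum. In wildtype-mated females on day 4 the fat body sum was 5958, 13260 and 8983 CPM in sham libraries 1 to 3, beside 28.5, 103 and 78.1 CPM for the 10 genes. In the D3Inj libraries it was 10500, 6283 and 12530 CPM, beside 92.3, 25.1 and 98 CPM. The part of fat body RNA, and of the gut RNA in 2 of the Imd-high libraries, in the levels of the 10 genes was not tested. D3Inj virgin library 3 and sham SP libraries 2 and 3 were Imd-high with gut sums of 7.04, 5.63 and 6.1 CPM, near the median of all libraries. In pooled brains, more cells of a type and more RNA per cell cannot be told apart.

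**Figure D3:**
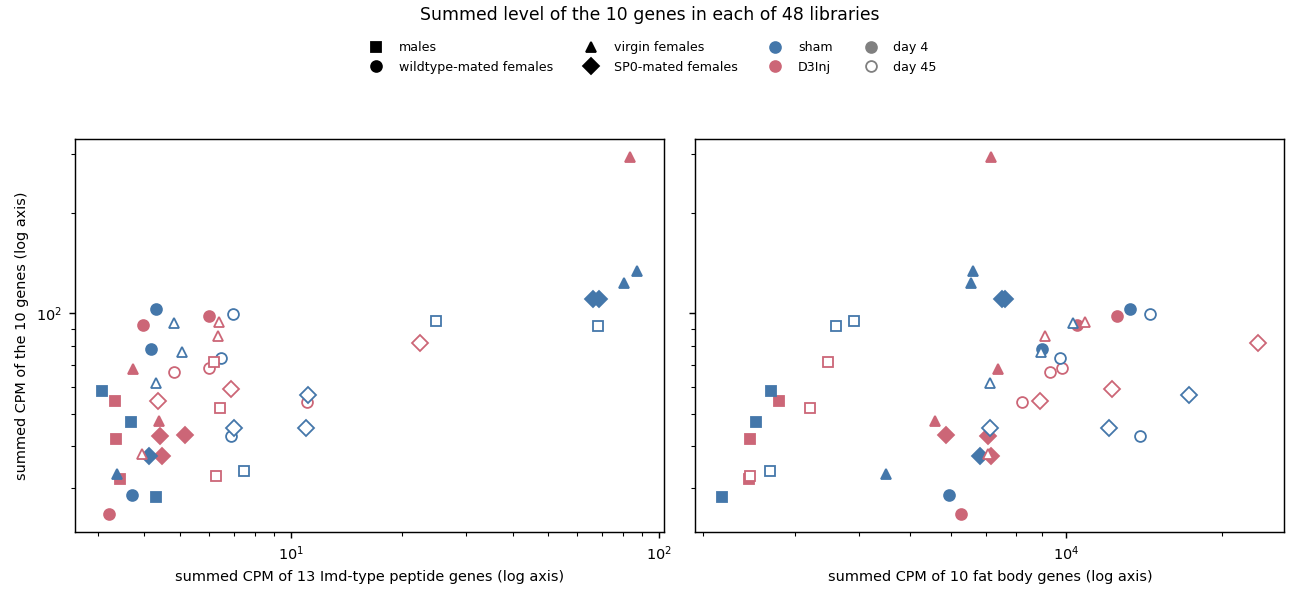
Summed level of the 10 genes (vertical, CPM, log axis) against the summed level of 13 Imd-type peptide genes (left panel, CPM, log axis) and of 10 fat body genes (right panel, CPM, log axis), 1 point per library. Shapes give the kind of fly, colours the treatment, and filled or open symbols day 4 or day 45. The 8 libraries with an Imd sum from 22.5 CPM upward have summed levels of the 10 genes from 81.6 CPM upward, and the other 40 libraries reach 103 CPM.

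Age was compared as day 45 over day 4 within each kind of fly. As background, edgeR's quasi-likelihood test with Benjamini-Hochberg adjustment called 33.4% of 15640 features in sham males, 28.2% in sham wildtype-mated females, 28.6% in sham virgin females and 27.9% in sham SP females. Of the 10 genes it called 1 higher in males (Drs), 3 lower in virgin females (BomBc1, Drs and Mtk) and 0 in the other 2 kinds. Of the 10 estimates, 10 were positive in males (median log2 fold change 0.98), 7 in wildtype-mated females (0.27), 2 in virgin females (-0.75) and 1 in SP females (-0.96). The genes moved together from library to library, so these signs are not separate observations. Only 2 differences between kinds were tested, and they are given below. The median over all features was at most 0.01 in size in the age comparisons of the 4 sham kinds. At an unadjusted p below 0.05 there were 4, 0, 3 and 2 of the 10 genes in the same order of kinds. Without sham SP library 1 of day 4, 2 genes were called lower in SP females (BomS1 and Mtk).

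In sham males Drs, the Drosomycin gene, was at 1.49, 2.45 and 1.86 CPM on day 4 and at 2.87, 13.4 and 2.87 CPM on day 45. Every day 45 library lay above every day 4 library, and library 2 alone lay far above. The log2 fold change was 1.74 (SE 0.60, n = 3 and 3, edgeR adjusted p = 0.0223). Without library 2 of day 45 it was 0.56 (edgeR adjusted p = 0.554), and without day 4 library 1 or 3 the adjusted p by edgeR was 0.081 or 0.0698. Without library 3 of day 45, 2 of the 10 genes were called. BomBc1 was at 0.26, 0.341 and 0.433 CPM on day 4 and at 1.49, 2.78 and 0.983 CPM on day 45, again with no overlap, and its log2 fold change of 2.35 (SE 0.98) had an edgeR adjusted p of 0.0607. BomS1 was at 0.706, 1.12 and 1.02 CPM and then at 4.6, 5.35 and 1.19 CPM (log2 fold change 2.00, SE 0.87, edgeR adjusted p = 0.0739).

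In sham virgin females the estimates went the other way for the same genes. Drs was at 2.95, 18.2 and 16.4 CPM on day 4 and at 2.51, 2.28 and 2.9 CPM on day 45, so that the 3 late libraries resembled the low early one. Its log2 fold change was -2.31 (SE 0.59, n = 3 and 3, edgeR adjusted p = 0.00224). BomBc1 went from 0.194, 4.46 and 4.28 CPM to 0.392, 0.367 and 0.944 CPM (log2 fold change -2.47, SE 0.92, edgeR adjusted p = 0.0399). The early libraries of Mtk were at 0.823, 7.31 and 5.55 CPM and the late ones at 0.9, 1.48 and 1.42 CPM (log2 fold change -1.85, SE 0.69, edgeR adjusted p = 0.0397). For BomBc1 and Mtk the day 4 and day 45 libraries overlapped because of day 4 library 1. Without the gut-high libraries, which here are virgin libraries 2 and 3 of day 4, the log2 fold changes were 1.49 for BomBc1, -0.21 for Drs and 0.65 for Mtk. The same 2 libraries held the high values of these genes, and library 1 alone was left on day 4. Leaving them out takes out the high early values, so no conclusion is drawn from that fit. Without 1 of virgin libraries 2 and 3 of day 4, or 1 and 2 of day 45, 1 gene was still called.

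BomS2, Dso1 and BomBc2 were not called in virgin females. BomS2 was at 5.57, 23.8 and 21.2 CPM on day 4 and at 23.6, 11.3 and 12.7 CPM on day 45 in sham flies, with a log2 fold change of -0.13 (SE 0.55). Dso1 had a log2 fold change of 0.01 (SE 0.52) and BomBc2 one of 0.38 (SE 0.47). None of these 3 genes passed the test, and their groups overlapped. For BomS2, as for Drs, library 1 was the lowest of the 3 on day 4. In D3Inj virgin females the log2 fold changes were -1.03 (SE 0.55) for BomS2, -0.60 (SE 0.52) for Dso1 and -0.17 (SE 0.45) for BomBc2, and none of these passed either. Whether these genes differed from Drs, BomBc1 and Mtk was not tested.

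With the tables assigned by their database record in place of their header, 0 of the 10 genes were called in sham males and 0 in sham virgin females, with log2 fold changes of Drs of 0.21 and 0.12. The record groups mix kinds and days. By header, the record's sham virgin group of day 4 holds a wildtype-mated library of day 45 and male libraries of both days. Their roX sums were 46.4, 6052 and 6045 CPM. The record fit therefore cannot bear on the age calls, and no conclusion is drawn from it. The 2 differences in the effect of age between kinds that were tested also gave 0 calls among the 10. Sham males against sham wildtype-mated females called 0.0831% of 15640 features, and 1 of the 10 genes (Drs, 1.93, SE 0.86, edgeR adjusted p = 0.653) had an unadjusted p below 0.05. Sham wildtype-mated against sham virgin females called 0.00639%, and BomBc1 (3.68, SE 1.48) and Drs (2.13, SE 0.84) had an unadjusted p below 0.05, each with an edgeR adjusted p of 1.

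The age comparison in D3Inj flies had the same background of widespread change, with 29.3% of features called in males, 32.2% in wildtype-mated females, 26.9% in virgin females and 31.9% in SP females. Among the 10 genes, neither males nor wildtype-mated females had any call, with 0 at an unadjusted p below 0.05 in either. In virgin females 3 were called lower and all 10 estimates were negative (median -1.03). Drs was at 4.46, 3.29 and 27.9 CPM on day 4 and at 2.52, 3.27 and 2.22 CPM on day 45 (log2 fold change -2.15, SE 0.58, edgeR adjusted p = 0.00403). The change of BomBc1 was -3.23 (SE 0.93, edgeR adjusted p = 0.007) and that of Mtk -2.05 (SE 0.67, edgeR adjusted p = 0.0184). These calls rested on D3Inj virgin library 3 of day 4. Without it 0 of the 10 genes were called, and the estimates were -0.52 for Drs, -0.81 for BomBc1 and 0.27 for Mtk. Without library 1 or 2 of that group 5 genes were called.

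In D3Inj SP females BomBc2 was the 1 gene called, and it was higher on day 45. It was at 4.29, 5.97 and 5.45 CPM on day 4 and at 16.7, 11.6 and 9.84 CPM on day 45, with no overlap (log2 fold change 1.27, SE 0.49, edgeR adjusted p = 0.0411). Its neighbour in the cluster, BomS2, was at 8.27, 6.66 and 8.91 CPM and then at 15.3, 10.8 and 12.2 CPM, also with no overlap, and had a log2 fold change of 0.69 (SE 0.57) that did not pass. The fat body sum in these libraries was 7085, 7159 and 5871 CPM on day 4 and 23410, 12250 and 8918 CPM on day 45, and its part in the change of BomBc2 was not tested. Leaving out any 1 of the day 4 libraries, or day 45 library 1 or 2, ended the call, with edgeR adjusted p between 0.0605 and 0.164.

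**Figure D4:**
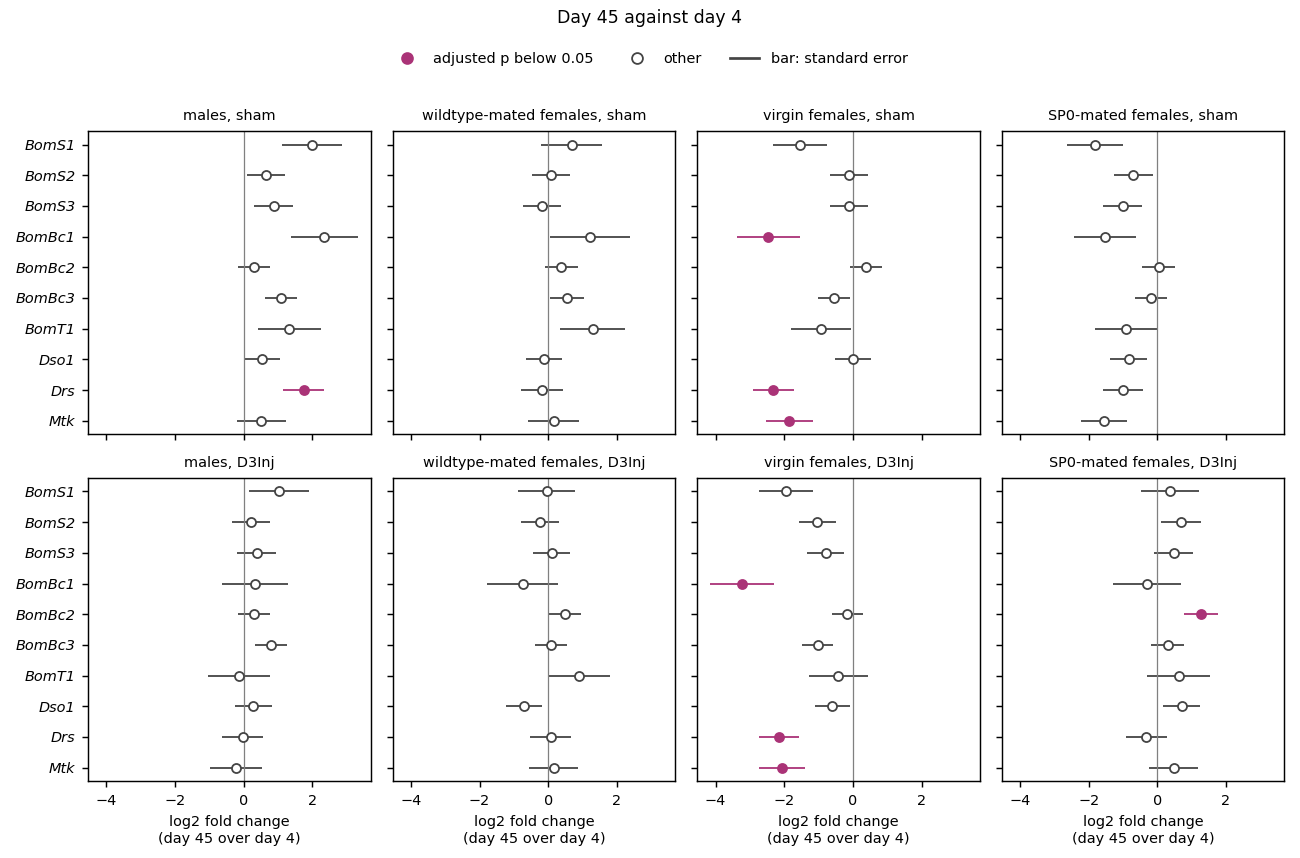
Log2 fold change of each gene on day 45 over day 4 (horizontal) in sham (upper row) and D3Inj flies (lower row) of the 4 kinds, with bars of 1 standard error from the edgeR fit. Filled purple points passed the adjusted p threshold of 0.05: Drs in sham males (1.74), BomBc1, Drs and Mtk in sham and D3Inj virgin females, and BomBc2 in D3Inj SP females (1.27).

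Upstream of the effectors, several genes of the pathway changed with age in the same direction in each kind of fly. The genes dl, encoding Dorsal, and Dif were each called higher in 8 of 8 age comparisons, with log2 fold changes between 0.40 and 1.13 for dl and between 0.23 and 0.44 for Dif. Toll-7, a Toll family receptor, was lower in 8 of 8 (-0.30 to -0.15), and grass, a serine protease upstream of Spätzle, was called lower in 7 of 8 (-1.17 to -0.53 over the 8). Of the 20 genes of this signalling list, 10 were called higher and 3 lower in sham males, 3 higher and 2 lower in sham wildtype-mated as in sham virgin females, and 6 higher and 3 lower in sham SP females. Over all features the shares called were 33.4%, 28.2%, 28.6% and 27.9% in the same order of kinds, and 26.9% to 33.4% over the 8 age comparisons. The counts in sham wildtype-mated and sham virgin females were not above that share. The summed level of the list stayed between 760 and 893 CPM over all libraries. Within that range it moved with the summed level of the 10 genes (r = 0.541 over 48 libraries and 0.726 after group means were subtracted).

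A recognition protein of the list moved in opposite directions in sham males and sham SP females. PGRP-SD, a peptidoglycan recognition protein, was higher on day 45 in sham males (log2 fold change 1.44, SE 0.44, edgeR adjusted p = 0.00882) and lower in sham SP females (-1.32, SE 0.46, edgeR adjusted p = 0.0263). PGRP-SA was called in sham males (1.30, SE 0.38, edgeR adjusted p = 0.00672). The difference between kinds was not tested for this pair of kinds.

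Among 10 tested genes of 13 other Toll targets, Bbd (1.18, SE 0.42) and SPH93 (3.88, SE 1.52), a serine protease homologue, were called higher with age in sham males, SPH93 lower in sham virgin females (-4.68, SE 1.30) and TotM, a Turandot stress protein gene, lower in sham SP females (-3.31, SE 1.15). In sham wildtype-mated females 0 of them were called, with 0 at an unadjusted p below 0.05. The Imd peptides had the larger shifts, again in the same libraries: of 12 tested, 9 were called higher in sham males (median log2 fold change 3.64, led by DptA at 9.50, SE 2.92), 9 lower in sham virgin females (median -4.09, led by DptA at -10.82, SE 2.69) and 5 lower in sham SP females (median -2.91, led by AttD at -5.99, SE 2.04). In sham wildtype-mated females 1 was called, edin (1.67, SE 0.45). All features were called at 33.4% in sham males, 28.2% in wildtype-mated, 28.6% in virgin and 27.9% in SP females. The largest Imd sizes are ratios to few counts. The 13 Imd genes summed to between 3.07 and 4.31 CPM in sham males of day 4, with 3 to 5 at 0. In sham virgin females of day 45 they summed to between 4.31 and 5.08 CPM, with 2 to 5 at 0. Sham male library 3 of day 45 was at 7.46 CPM. This list was not refitted with libraries left out. Of the 6 Drosomycin-like genes 2 were tested, and 0 were called in the 4 sham age comparisons, with 0 at an unadjusted p below 0.05.

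Sex was compared in sham flies of the same day. On day 4, males and wildtype-mated females differed in 6.25% of 14631 features but in 0 of the 10 genes, with 0 at an unadjusted p below 0.05, and males and virgin females differed in 6.74% of features and 1 of the 10. The 1 gene was Drs, at 1.49, 2.45 and 1.86 CPM in males and 2.95, 18.2 and 16.4 CPM in virgin females (log2 fold change -2.71, SE 0.67, edgeR adjusted p = 0.0134). The groups did not overlap, and all 10 estimates were negative, with a median of -1.52. Without the gut-high virgin libraries 2 and 3, which also held the high Drs values, the change in Drs was -0.60. Virgin library 1 alone was left there, so no conclusion is drawn from that fit. Leaving out male library 1 or 3, or virgin library 2 or 3, gave 0 calls, and leaving out virgin library 1 gave 3. On day 45 the percentages of features called were 4.25% against wildtype-mated and 6.25% against virgin females, and 0 of the 10 genes passed either test. Drs was the nearest to the threshold, at 2.87, 13.4 and 2.87 CPM in males against 2.51, 2.28 and 2.9 CPM in virgin females (1.34, SE 0.43, edgeR adjusted p = 0.0663). At an unadjusted p below 0.05 there were 3 of the 10 genes against wildtype-mated and 2 against virgin females. Without male library 1 or 3 of day 45, 1 gene (Drs) was called higher in males in each comparison.

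Mating status was compared in sham females, and none of the 6 comparisons called any of the 10 genes by edgeR or by DESeq2. On day 4 the background was 0.0615% of features for wildtype-mated against virgin, 0.0478% for SP against virgin and 0% for wildtype-mated against SP females. On day 45 it was 0%, 0.0131% and 0.0131% in the same order. Of 60 gene tests, 11 had an unadjusted p below 0.05, and the lowest edgeR adjusted p was 0.355, for Drs on day 4, wildtype-mated against virgin (log2 fold change -2.04, SE 0.64). There, the wildtype-mated libraries were at 2.35, 4.59 and 2.29 CPM and the virgin libraries at 2.95, 18.2 and 16.4 CPM, which overlap. Dso1 on day 45 was at 15.6, 13.4 and 10.7 CPM in SP females and at 32.1, 21.1 and 27.5 CPM in virgin females, a difference of -1.01 (SE 0.42) with no overlap and an edgeR adjusted p of 0.602.

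Injury was the study's main question, and 0 of the 10 genes were called in any of the 8 comparisons of D3Inj with sham, by edgeR or by DESeq2. The background was as low. On day 4, 0.00683% of 14631 features were called in males, 0% in wildtype-mated females, 0.0547% in virgin females and 0.00683% in SP females, and on day 45 the figure was 0% of 15286 features in each of the 4 kinds. Of 80 gene tests, 7 had an unadjusted p below 0.05 and the lowest adjusted p by edgeR was 0.679. With 3 libraries a group, the estimates of these variable genes were wide: the standard errors ran from 0.48 to 1.37 on the log2 scale on day 4 and from 0.32 to 0.87 on day 45.

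On day 4, the intervals in males were wide. Drs was at 1.49, 2.45 and 1.86 CPM in sham and 1.88, 2.7 and 2.38 CPM in D3Inj males (log2 fold change 0.24, unadjusted 95% interval -1.23 to 1.72). In wildtype-mated females BomS2 was at 5.83, 19.1 and 14.9 CPM in sham and 21.3, 4.16 and 20.1 CPM in D3Inj libraries (0.20, interval -1.17 to 1.57). Both pairs of groups overlapped, and the intervals leave room for changes of more than 2-fold either way.

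On day 4 most estimates were positive in virgin females, where 1 D3Inj library was high, and all were negative in SP females. In virgin females BomS2 was at 5.57, 23.8 and 21.2 CPM in sham and 8.88, 14.7 and 64.9 CPM in D3Inj libraries (0.78, interval -0.55 to 2.12). Drs was at 2.95, 18.2 and 16.4 CPM in sham and 4.46, 3.29 and 27.9 CPM in D3Inj libraries (-0.09). The Imd sums were 3.39, 87.2 and 80.2 CPM in the sham virgin and 4.38, 3.74 and 83.1 CPM in the D3Inj virgin libraries. Of the 10 estimates 8 were positive, and 0 of the 10 genes had an unadjusted p below 0.05. In SP females all 10 were negative, with a median of -1.09. Mtk was at 1.17, 7.2 and 8.01 CPM in sham SP and at 1.35, 1.31 and 1.07 CPM in D3Inj SP libraries (-2.14, SE 0.80, unadjusted p = 0.0138, edgeR adjusted p = 1). Drs (-1.34, SE 0.64) and BomS1 (-2.06, SE 0.99) were the others with an unadjusted p below 0.05. The Imd sums were 4.13, 66 and 68.5 CPM in the sham SP and 4.41, 4.47 and 5.16 CPM in the D3Inj SP libraries. Without the Imd-high libraries, a set chosen after seeing the data, the median of the 10 was 0.135. Of the sham SP females only library 1 was left there. The 10 genes moved with the Imd sum, so leaving these libraries out takes out high sham values. No conclusion is drawn from that fit.

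On day 45, the injured males had lower estimates than sham males for all 10 genes (median -0.70). Drs was at 2.87, 13.4 and 2.87 CPM in sham and at 1.67, 3.24 and 1.75 CPM in D3Inj males, with overlap (-1.53, SE 0.43, unadjusted p = 0.00151, edgeR adjusted p = 0.679). BomBc1 (-1.59, SE 0.61), Mtk (-1.12, SE 0.48) and BomS1 (-1.04, SE 0.45) also had an unadjusted p below 0.05, each with an edgeR adjusted p of 0.816. The Imd sums were 24.8, 68.2 and 7.46 CPM in sham and 6.45, 6.19 and 6.29 CPM in D3Inj males. Without the Imd-high libraries the median of the 10 was 0.39. Of the sham males only library 3 was left there. The 10 genes moved with the Imd sum, so leaving these libraries out takes out high sham values. No conclusion is drawn from that fit.

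In the 3 kinds of females on day 45 the estimates went both ways. They ran from -0.69 to 0.18 in wildtype-mated females (median -0.20), from -0.21 to 0.33 in virgin females (median -0.03) and from -0.66 to 0.79 in SP females (median 0.17), and 0 of the 10 genes had an unadjusted p below 0.05 in any of the 3 kinds. Mtk in wildtype-mated females was at 1.96, 0.792 and 1.51 CPM in sham and 2.21, 0.779 and 0.558 CPM in D3Inj libraries, which overlap (log2 fold change -0.28, SE 0.49, edgeR adjusted p = 0.993, unadjusted 95% interval -1.31 to 0.76). The paper reports lower Metchnikowin expression after injury in these females at this time, from DESeq2 models that include sex, age and injury. Here the estimate was negative but did not pass, and the reason for the different outcome was not tested. In virgin females Mtk was at 0.9, 1.48 and 1.42 CPM in sham and 1.14, 2.3 and 1.33 CPM in D3Inj libraries (0.33, unadjusted 95% interval -0.69 to 1.34). Dso1 in SP females was at 15.6, 13.4 and 10.7 CPM in sham and 30, 21.2 and 17.4 CPM in D3Inj libraries, which do not overlap (0.79, SE 0.42, edgeR adjusted p = 0.788).

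**Figure D5:**
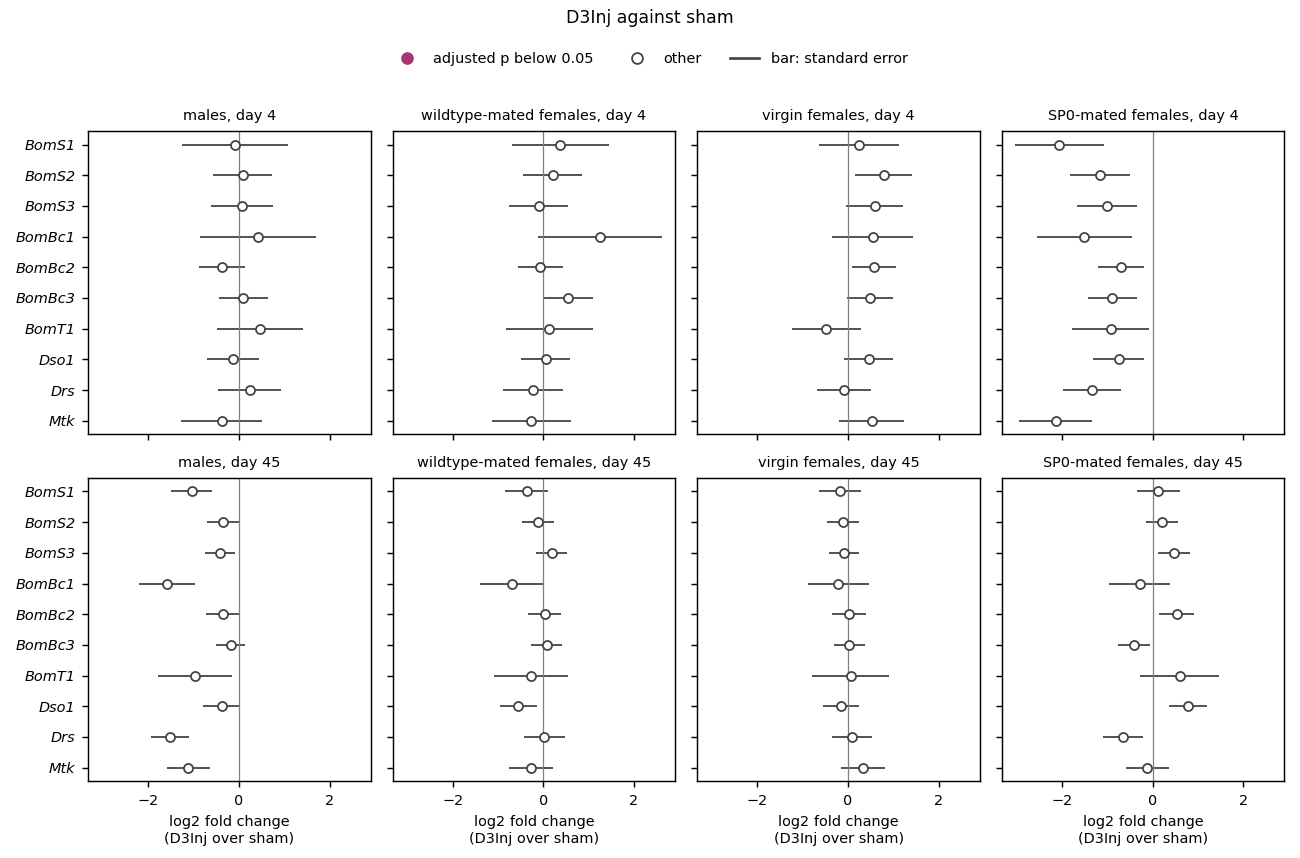
Log2 fold change of each gene in D3Inj over sham flies (horizontal) on day 4 (upper row) and day 45 (lower row) in the 4 kinds, with bars of 1 standard error from the edgeR fit. No point is filled, since none of the 10 genes passed the adjusted p threshold of 0.05, and all 10 estimates are negative in SP females on day 4 and in males on day 45.

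Whether injury acted differently in wildtype-mated females was tested against each other kind on both days. The background was 0% of 14631 features against males, virgin and SP females on day 4 and 0% of 15286 features against the same 3 on day 45. None of the 10 genes was called in these 6 tests by edgeR or by DESeq2, and 2 of 60 gene tests had an unadjusted p below 0.05. They were Drs against males on day 45 (difference of log2 fold changes 1.55, SE 0.61, edgeR adjusted p = 0.917) and Dso1 against SP females on day 45 (-1.34, SE 0.59, edgeR adjusted p = 0.893). The 10 differences against SP females on day 4 were all positive, from 0.63 to 2.76, and share the sham SP libraries 2 and 3 described above.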

How the data were processed

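Brain RNA was depleted of rRNA and made into stranded paired-end libraries. The authors aligned reads to dm6 with STAR after FastQC and counted them with featureCounts, per the labels' processing notes, and deposited whole-number counts per feature for each library. Tool versions and the strand setting of the counting were not found in the labels or methods. The 48 count columns were all used (0 left out), with samples taken from column headers. The 10 genes and the gene lists were chosen with earlier results of these data known.

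Features were filtered with filterByExpr (minimum count 10), scaled by TMM and tested with edgeR 4.0.16 in R 4.3.3 (glmQLFit and glmQLFTest, limma 3.58.1), 1 coefficient per group, with Benjamini-Hochberg adjustment over all features and a threshold of 0.05. Age used all 48 libraries (15640 features), and sex, mating and injury the 24 libraries of a day (14631 and 15286 features). Standard errors were taken from the F statistics, and 95% intervals used 16 residual degrees of freedom. CPM and RPKM used TMM-scaled totals and dm6 exon lengths. Alternatives were DESeq2 1.42.0, RLE scaling, no filter, robust fitting, a replicate block, 1 fit for all days, record labels and left-out libraries. Named genes were the 10, the 5 most like them by each correlation, and up to 3 called genes per list and comparison with the largest change. The fits were tested on simulated data. No library pair was identical or within sampling noise. P-values rest on the spread between cohorts within groups, estimated per gene over all groups of a fit and not from the compared groups alone. That spread differed by group. The median ratio of highest to lowest library, without BomT1, was 7.32 in D3Inj virgin and 1.39 in D3Inj SP females on day 4. Same-numbered sham and D3Inj libraries were not paired in the main fits: 4 of 24 correlations of their deviations were over 0.1. The paper states that experimental and control flies were collected and tested together. The replicate block was the alternative that takes up the library number.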

Additional observations from a re-analysis of the deposited data

How the results depend on the processing

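The counts of called genes were 0 in each injury, injury-difference and mating comparison under all alternatives run, and the 9 single calls were less stable. In sham males (age, 1 call), the replicate block gave 2 and record labels 0, with Drs at 0.21 under record labels and at 0.56 without the 8 Imd-high libraries. The record groups mix kinds and days, so the record fit cannot bear on the age calls. In sham virgin females (age, 3 calls), robust fitting gave 1 and record labels 0. The fits without the gut-high and without the Imd-high libraries left day 4 with library 1 alone, the low one. There BomBc1 changed sign to 1.49 and 1.502 and Mtk to 0.65 and 0.64, and no conclusion is drawn from that pair of fits. Drs changed sign to 0.12 under record labels. In D3Inj virgin females (age, 3 calls), the fit without the Imd-high libraries gave 0, and Mtk changed sign to 0.27 there. Leaving out 1 library at a time moved Mtk between -2.54 and 0.27, the latter without D3Inj virgin library 3 of day 4. In D3Inj SP females (age, 1 call), robust fitting and the fit without the Imd-high libraries gave 0 each. For males against virgin females on day 4 (1 call), DESeq2 gave 2 and the fit of all 48 libraries 3. Without the gut-high libraries, which left virgin library 1 alone, Drs was at -0.60. On day 45 (0 calls) the fit with no filter gave 1. The Imd-high set was chosen after seeing the data. Leaving out 1 library at a time moved the count between 0 and 2 in sham males, 1 and 3 in sham virgin females, 0 and 2 in sham SP females, 0 and 5 in D3Inj virgin females and 0 and 1 in D3Inj SP females. It moved it between 0 and 3 for males against virgin females on day 4, and between 0 and 1 on day 45 for males against virgin and against wildtype-mated females. The replicate block changed no other count by over 1.5 times. Where leaving out libraries left a group with 1, that library was assumed to vary like the other groups. The cause of these changes was not tested. Depth limits BomT1 and BomBc1 most, with counts as low as 0 and 2 in a library.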
